A study of Mus musculus with 8 samples.

Results

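The surface markers followed here are 7 genes whose products have been used to isolate tumor-initiating cells: Epcam, Prom1 (CD133), Cd44, Cd24a, Met, Cxcr4 and Dclk1. The members were found by symbol, and all 7 were present among the 27775 gene rows of both count tables. The tumors came from KPC mice, in which Pdx-1-Cre switches on conditional alleles, among them LSL-Trp53R172H/+, in pancreatic cells under the Pdx-1 promoter, and both tumors carried these alleles and came from untreated mice. Cells dissociated from 1 medium-size and 1 large-size tumor were sequenced from droplets (10x Genomics 3′ v2 libraries), where a unique molecular identifier (UMI) stands for 1 captured mRNA molecule. The 4 technical replicates of each tumor were pooled in 1 table, so each size is 1 sample, and no test between tumors or between cells was made. The sample descriptions carry the word SCS for the medium-size and Whole for the large-size tumor, which the sources do not explain, so a difference in preparation cannot be told apart from size. The age of the mice was not given in the sources used here.

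A tumor-initiating cell is defined by its ability to start a new tumor when it is transplanted, and in pancreatic carcinoma such cells have been sorted with antibodies against combinations of surface proteins. EPCAM is an adhesion protein of epithelial cells, PROM1 is a membrane protein of cell protrusions, CD44 is the receptor for hyaluronan, and CD24 is a small lipid-anchored glycoprotein. MET is the receptor tyrosine kinase for hepatocyte growth factor, CXCR4 is the receptor for the chemokine CXCL12, and DCLK1 is a microtubule-associated kinase that marks tuft cells of the gut and has been used as a marker of pancreatic tumor-initiating cells. A count of mRNA molecules is not a measure of protein at the surface, and no transplantation was made of the sequenced cells.

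All 7 members are protein-coding genes with exons that overlap no other gene on the same strand in the GENCODE M21 annotation of GRCm38. Epcam lies at chr17:87635979-87651129 on the plus strand and Prom1 at chr5:43993620-44102032 on the minus strand. Cd44 lies at chr2:102811141-102901665 on the minus strand and Cd24a at chr10:43578284-43584265 on the plus strand. These 4 genes are the ones whose levels were high or whose combinations were most often found. Met lies at chr6:17463800-17573980 on the plus strand, Cxcr4 at chr1:128588199-128592293 on the minus strand, and Dclk1 at chr3:55242364-55539068 on the plus strand. Prom1 and Dclk1 overlap exons of genes on the opposite strand, over 424 bases for Prom1 and over 87 and 27 bases for Dclk1. No other transcript matched 100 or more of the last 500 bases of a member at 95% identity or above, so no copy that could share its reads was found by this search.

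The sequences before the starts of Epcam and Dclk1 are shown because Dclk1 was low in the carcinoma clusters with the highest Epcam. Each run is the 250 bases before a start site in RefSeq on GRCm38.p6, 5′ to 3′ on the plus strand, and the capitals mark CACCTG or its reverse complement, a form of the E-box bound by Zeb and Snail factors. The Epcam window lies at chr17:87635729-87635978, that of the first Dclk1 start at chr3:55242114-55242363, and that of the internal Dclk1 start at chr3:55461478-55461727.
Epcam: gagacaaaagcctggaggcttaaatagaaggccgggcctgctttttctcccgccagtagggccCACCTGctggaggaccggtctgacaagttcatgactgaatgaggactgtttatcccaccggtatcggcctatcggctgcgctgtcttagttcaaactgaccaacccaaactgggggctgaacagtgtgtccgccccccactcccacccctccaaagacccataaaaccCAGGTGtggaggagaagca
Dclk1 first start: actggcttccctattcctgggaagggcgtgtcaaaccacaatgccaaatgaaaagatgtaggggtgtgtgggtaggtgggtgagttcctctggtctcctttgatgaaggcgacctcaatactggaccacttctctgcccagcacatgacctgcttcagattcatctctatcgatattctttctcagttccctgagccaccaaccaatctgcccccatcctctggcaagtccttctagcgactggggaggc
Dclk1 internal start: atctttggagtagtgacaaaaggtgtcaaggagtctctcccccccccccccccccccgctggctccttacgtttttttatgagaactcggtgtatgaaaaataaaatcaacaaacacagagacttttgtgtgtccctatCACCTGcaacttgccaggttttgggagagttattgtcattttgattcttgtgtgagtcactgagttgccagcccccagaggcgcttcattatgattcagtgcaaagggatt
The motif began 187 and 19 bases before the Epcam start and 111 bases before the internal Dclk1 start, and these letters were not in the window of the first Dclk1 start. Of the 7 members, 6 had a RefSeq entry, with 8 windows in all, of which 3 held the motif, 1 of them at Prom1. Of all 32851 windows of this length, 17.2% held it. A match of letters is not a binding site, and binding was not measured.

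A total of 20301669 UMIs was counted in 2812 cells of the medium-size tumor, with a median of 5456.5 UMIs per cell. The large-size tumor had fewer UMIs per cell, at 2239012 UMIs in 1533 cells and a median of 1037. The 2 tables shared 5 cell barcodes. Cells were clustered within each tumor without using the 7 members, and clusters were named from marker lists. In the medium-size tumor, 8 clusters with 2325 cells carried epithelial markers and are called carcinoma cells below. The other cells were 238 macrophage-like, 74 mesothelial-like, 67 stromal-like and 39 endothelial-like cells and 69 cells of a cluster that carried 10 of 11 epithelial and 8 of 11 macrophage markers and was left unnamed. In the large-size tumor, 4 clusters with 832 cells were taken as carcinoma, and beside them stood 253 macrophage-like, 215 enterocyte-like, 154 goblet-like, 50 stromal-like, 18 unnamed and 11 endothelial-like cells. The genotype of single cells was not read, so "carcinoma" rests on the marker lists alone. Of the 11 epithelial markers, 3 were held by cluster 8 (medium-size tumor) and 3 by cluster 1 (large-size tumor), the fewest of the carcinoma clusters. Cluster 4 of the medium-size tumor had 2 genes of the goblet list and none of the epithelial list among its 10 leading genes, and the main values are given with and without it.

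Carcinoma cells of the medium-size tumor carried higher levels of Epcam, Prom1 and Cd24a than all other cells of that tumor together, and a lower level of Cxcr4. Levels are given as counts out of 1000000 UMIs (CPM), summed over the cells of a group, with ratios in 95% exact intervals that cover counting error only. Epcam stood at 1091 CPM in carcinoma cells and 337 CPM in other cells, a ratio of 3.24 (3.01 to 3.49). Prom1 stood at 70.2 and 24.2 CPM, a ratio of 2.91 (2.21 to 3.89), and Cd24a at 742 and 354 CPM, a ratio of 2.10 (1.95 to 2.25). These were the 3 members at least 2-fold higher in carcinoma cells after 1 UMI was added to each sum, out of 6 members with at least 200 UMIs, against 11.0% of the 7838 genes that reached this count. Met, at 23.4 and 11.6 CPM, had a ratio of 2.01 (1.35 to 3.11) and lay just under the limit once the UMI was added, with a log2 ratio of 0.95. Cd44 had 566 and 411 CPM, a ratio of 1.38 (1.29 to 1.48). Dclk1 had 66.0 and 55.5 CPM, and the interval of its ratio, 0.988 to 1.44, held 1. Thus the genes of the hyaluronan receptor and the tuft cell kinase separated carcinoma from other cells less than that of the epithelial adhesion protein did. At a clustering resolution of 1.2 the log2 ratio of Cd24a was 0.51 and that of Cd44 was -0.27, against 0.46 for Cd44 at the resolution used. The 69 cells left unnamed had 1067 CPM of Epcam, and without them the log2 ratios were 2.43 for Epcam, 2.59 for Prom1 and 1.66 for Met, so that 4 members were past 2-fold. Met was also past it with cells classed one by one (1.33), at a resolution of 1.2 (1.08) and without the cells of highest doublet score (1.14). Without cluster 4 the same 3 members were at least 2-fold higher, with log2 ratios of 1.52 for Epcam, 1.29 for Prom1 and 1.03 for Cd24a.

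Cxcr4 was counted too rarely to pass the filter, with 25 UMIs in all carcinoma cells and 37 in the other cells, although the carcinoma cells were far more numerous. Its level was 1.38 CPM in carcinoma cells and 16.6 CPM in other cells, so it lay past 2-fold lower, but below the 200 UMIs of the genes tested. Of the 6 members tested, 0 were at least 2-fold lower, against 7.94% of genes. In macrophage-like cells Cxcr4 stood at 26.1 CPM.

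In the large-size tumor the order for Epcam was the opposite, and intestinal cell types were present there. Epcam was 846 CPM in carcinoma cells and 1286 CPM in other cells, a ratio of 0.658 (0.603 to 0.717), with 1950 CPM in enterocyte-like and 2539 CPM in goblet-like cells. When these intestinal clusters were counted with the carcinoma cells, the log2 ratio of Epcam changed from -0.61 to 3.38, and it was also above 0 at a resolution of 1.2 (0.24) and with cells classed one by one (0.41). The direction for Epcam in this tumor therefore depends on how cells are classed. Cd24a was the 1 member at least 2-fold higher in carcinoma cells, at 585 against 207 CPM, where 5 members had at least 50 UMIs and 15.0% of the 4829 genes with that count were as much higher. With cells classed one by one, its log2 ratio was 0.83, under the limit. Cd44, at 351 and 191 CPM, had a ratio of 1.84, and Dclk1, at 30.7 and 31.1 CPM, a ratio of 0.986. When the intestinal clusters were counted with the carcinoma cells, the direction for Cd44 also turned. Cxcr4, with 4 UMIs in carcinoma and 12 in other cells, lay past 2-fold lower but below 50 UMIs, and of the 5 members tested 0 were as much lower, against 13.5% of genes. The intervals of Prom1 (ratio 1.38, 0.662 to 3.15) and Met (ratio 0.657, 0.377 to 1.16) held 1.

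**Figure D1:**
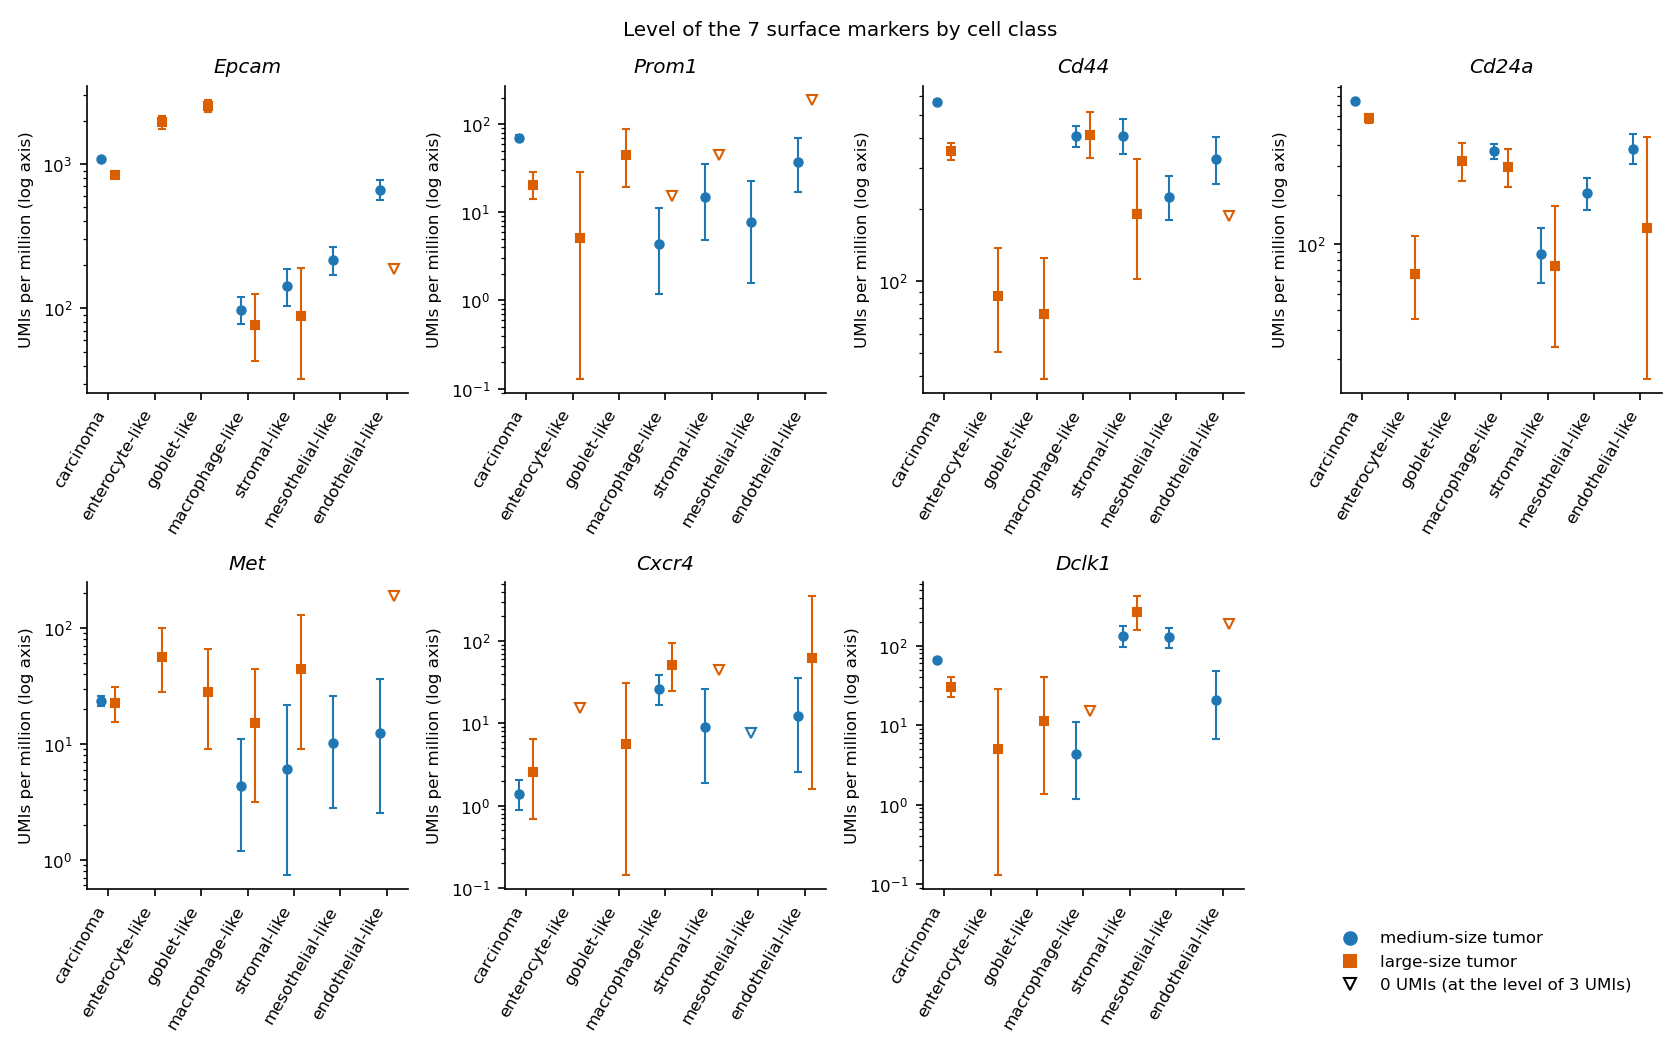
Level of each of the 7 markers in CPM (y axis, log scale) in each named cell class (x axis), with circles for the medium-size tumor, squares for the large-size tumor, 95% exact Poisson intervals for counting error, and open triangles at the level of 3 UMIs where 0 were counted. Epcam was 1091 CPM in carcinoma cells and 96.7 CPM in macrophage-like cells in the medium-size tumor, whereas Cxcr4 was 1.38 and 26.1 CPM.

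Among the other cell types the members fell into different patterns. Epcam in macrophage-like cells stood at 96.7 CPM (medium-size tumor) and 76.5 CPM (large-size tumor), with 142 and 88.0 CPM in stromal-like cells and 215 CPM in mesothelial-like cells. Cd44 stood at 405 and 413 CPM in macrophage-like cells, against 86.3 CPM in enterocyte-like and 72.9 CPM in goblet-like cells. Cd44 is known from many leukocytes, where it binds hyaluronan in the matrix. Cd24a stood at 368 and 296 CPM in macrophage-like cells, 87.4 and 73.4 CPM in stromal-like cells, 319 CPM in goblet-like and 66.0 CPM in enterocyte-like cells. Dclk1 stood at 133 CPM in stromal-like and 128 CPM in mesothelial-like cells of the medium-size tumor, with overlapping intervals. Its level in stromal-like cells of the large-size tumor was 264 CPM. Macrophage-like cells had 4.34 CPM of Dclk1 (medium-size tumor) and 0 UMIs (large-size tumor). Dclk1 in these tumors was therefore read at least as often in stromal-like as in carcinoma cells.

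UMIs of epithelial genes were found in every cell type of the medium-size tumor, and the level of the 11 epithelial markers there was taken as the background. Free RNA in the droplets and droplets with more than 1 cell can both give such UMIs, and their parts were not tested. In the medium-size tumor, these markers in macrophage-like cells stood at 4.96% to 10.7% of their level in carcinoma cells. Epcam (8.86%), Prom1 (6.19%) and Dclk1 (6.59%) lay inside that range, and Met (18.6%, from 4 UMIs), Cd24a (49.6%) and Cd44 (71.6%) above it. The 4 UMIs of Met do not set it apart from that range beyond counting error. Macrophage-like values of the first 3 genes are thus at the level of this background and are not read as expression. In stromal-like cells the markers stood at 6.37% to 27.3%, with Epcam (13.0%), Prom1 (21.4%), Cd24a (11.8%) and Met (25.8%) inside and Cd44 (71.9%) and Dclk1 (201%) above. In mesothelial-like cells Dclk1 (194%) again lay above the markers, which reached 48.2%. The endothelial-like cells held 33.2% to 56.2% of the markers' carcinoma level, and Epcam at 61.0% and Cd44 at 57.3% lay just above. In the large-size tumor the markers in macrophage-like cells stood at 0% to 23.9%, with Epcam at 9.04% inside and Cd24a (50.5%), Met (68.3%, from 3 UMIs, which do not set it apart from the range beyond counting error) and Cd44 (118%) above. In the opposite direction, Cxcr4 in carcinoma cells stood at 5.31% of its macrophage level, inside the 0.530% to 12.3% of the macrophage markers, so Cxcr4 in carcinoma cells was not above the macrophage markers read there. The same held in the large-size tumor, at 5.02% against 0% to 5.92%.

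At a matched depth of 2500 UMIs per cell, Cd24a was detected in 81.8% of the carcinoma cells of the medium-size tumor, Epcam in 67.7% and Cd44 in 67.2%. Prom1 was detected in 15.8%, Dclk1 in 13.5% and Met in 5.12%. Cxcr4 was detected in 8 of 2325 cells (0.344%). These shares are of cells thinned by drawing the same number of UMIs from each, since deeper cells show more genes. In macrophage-like cells thinned alike, which had a median of 3516 UMIs against 5985 in carcinoma cells before thinning, the shares were 46.6% for Cd24a, 15.5% for Epcam, 57.6% for Cd44, 0.840% for Prom1, 0.840% for Dclk1, 0.420% for Met and 7.14% for Cxcr4. Without thinning, Epcam was detected in 79.1% of carcinoma cells of the medium-size tumor and 45.7% of those of the large-size tumor.

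Within the carcinoma cells of the medium-size tumor, the levels of Epcam and Prom1 varied most among the members. Epcam ranged from 205 CPM in cluster 8, led by Inhba, Bmp2, Mmp10 and Mmp13, to 2949 CPM in cluster 6, led by Krt17, Cldn4 and Tnc. Prom1 ranged from 11.6 CPM in cluster 8 to 195 CPM in cluster 7, led by Dmbt1, Lcn2 and Mmp7. Cluster 4, led by Tff3, Ly6d, Reg1 and Reg3b, was near the top for both, with 2426 CPM of Epcam and 179 CPM of Prom1. Cluster 6 was high in Epcam alone of this pair, with 47.7 CPM of Prom1. Cd44 ranged from 240 CPM in cluster 5, led by Yap1, Birc2 and Cldn18, to 1091 CPM in cluster 6, and its level in cluster 8 (916 CPM) was the one nearest the top. Clusters 8 and 5 had like levels of Epcam, at 205 and 206 CPM, but stood at opposite ends for Cd44.

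Dclk1 ran the other way. It ranged from 20.4 CPM in cluster 7 to 130 CPM in cluster 5, where Epcam was 206 CPM. Clusters 4 and 6, with the highest Epcam, had 30.7 and 34.2 CPM of Dclk1, and cluster 8, with the lowest Epcam, had 30.1 CPM. High Dclk1 was thus not a feature of all clusters low in Epcam. In cluster 3, led by Mcpt8, Cldn6 and Hmga2, Dclk1 stood at 92.9 CPM, and in the cycling cluster 2, led by Ube2c, Birc5 and Top2a, at 77.5 CPM.

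Cd24a was the most even of the well-counted members, from 557 CPM in cluster 2 to 975 CPM in cluster 7. Met ranged from 11.1 CPM in cluster 8 to 32.0 CPM in cluster 7, on 21 and 44 UMIs. Cxcr4 was between 0 UMIs in cluster 7 and 7 UMIs in cluster 8. To set these ranges beside other genes, 10 CPM was added to every level before the highest was divided by the lowest. The ratio was then 13.7 for Epcam, 9.48 for Prom1, 4.60 for Dclk1, 4.41 for Cd44, 1.99 for Met, 1.74 for Cd24a and 1.37 for Cxcr4, where the median of 7313 genes was 1.92. At or above these values lay 1.27% of genes for Epcam, 2.46% for Prom1, 7.94% for Dclk1, 8.52% for Cd44, 45.2% for Met, 63.9% for Cd24a and 95.1% for Cxcr4. The members did not enter the clustering, but genes that vary with them did, so these ranges are a description.

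**Figure D2:**
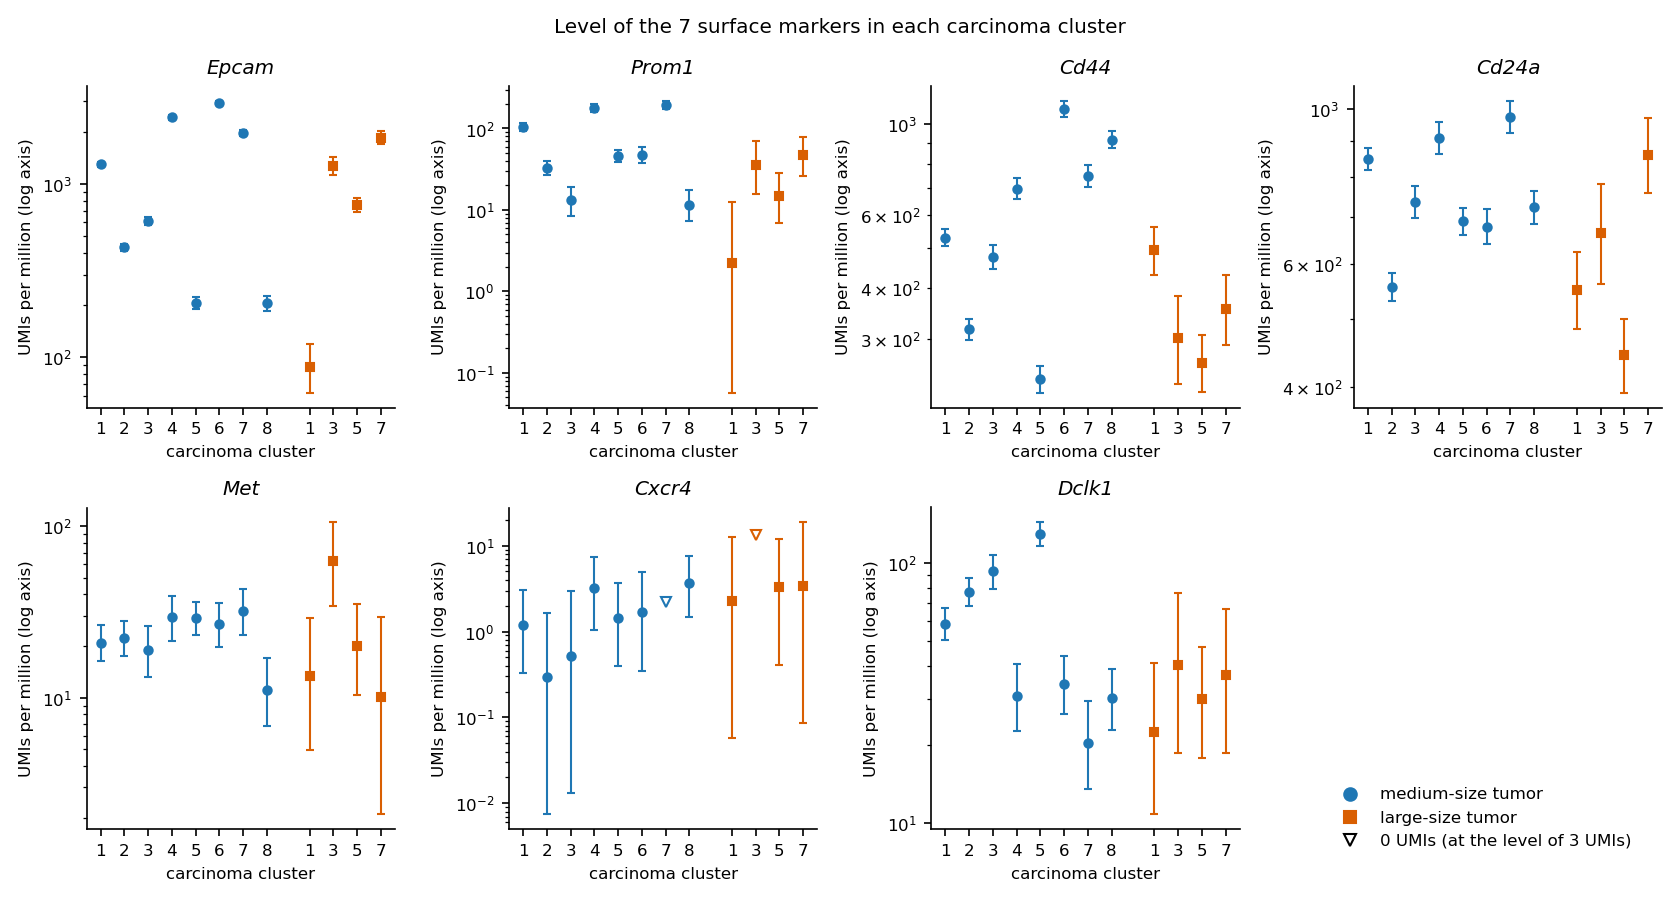
Level of each marker in CPM (y axis, log scale) in each carcinoma cluster (x axis), with circles for the medium-size tumor, squares for the large-size tumor, 95% exact Poisson intervals for counting error, and open triangles at the level of 3 UMIs where 0 were counted. In the medium-size tumor Epcam went from 205 CPM in cluster 8 to 2949 CPM in cluster 6, while Dclk1 went from 20.4 CPM in cluster 7 to 130 CPM in cluster 5.

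Genes of epithelial-mesenchymal transition (EMT), in which epithelial cells lose adhesion and gain a mesenchymal program, were set beside Epcam across the clusters. In cluster 8 of the medium-size tumor all 9 listed genes lay above the median of the 8 clusters, and 4 of the 9 were highest there. These were Zeb1 (63.4 CPM), Zeb2 (33.3 CPM), Snai1 (4.22 CPM) and Cdh2 (122 CPM), of which the first 3 encode repressors of epithelial genes and the last N-cadherin. In cluster 7 Zeb1 and Zeb2 were each at 1.45 CPM, and Vim, the mesenchymal filament protein, was at 39.3 CPM. Vim was highest in cluster 5, at 1585 CPM, with 1559 CPM in cluster 8. The clusters with the lowest Epcam thus had the highest Vim, but they differed in the rest of the list. In cluster 5 only 5 of the 9 genes lay above the median and Fn1, at 207 CPM, was lower than in any other cluster, while 8 of the 9 lay above it in cluster 3 and 6 in cluster 2. All 9 EMT genes of the large-size tumor were highest in cluster 1, the carcinoma cluster with the lowest Epcam, with 1653 CPM of Vim and 47.1 CPM of Zeb1. For Sparc this was by 13.5 against 13.4 CPM in cluster 5, Snai1 and Snai2 had 2 and 3 UMIs in cluster 1, and only 5 of the 9 had the 50 UMIs asked of listed genes. In cluster 8 of the medium-size tumor Snai1 rested on 8 UMIs, and Sparc stood at 25.3 CPM, against 7703 CPM in stromal-like cells. The share of all genes that lay above the median, or were highest, in these clusters was not counted. The counts of EMT genes therefore have no background beside them. Because the EMT genes could enter the clustering, this is no test.

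In the large-size tumor Epcam ranged from 87.5 CPM in cluster 1, led by Ggct, Ramp1 and Hmga2, to 1852 CPM in cluster 7, led by Gkn2 and Tff1. Cd44 stood highest where Epcam was lowest, at 493 CPM in cluster 1 against 262 CPM in the cycling cluster 5. Prom1 had 1 UMI in cluster 1 and 14 UMIs, or 47.2 CPM, in cluster 7. Low Epcam with little Prom1 and with Cd44 kept was therefore found in 1 carcinoma cluster of each tumor. Cd24a ranged from 444 CPM in cluster 5 to 860 CPM in cluster 7, and Dclk1 from 22.4 CPM in cluster 1 to 40.4 CPM in cluster 3, on 10 and 9 UMIs. Met ranged from 10.1 CPM in cluster 7 (3 UMIs) to 62.9 CPM in cluster 3 (14 UMIs). Cluster 3, with Xist, Malat1 and Rpl10 among its leading genes, had a median of 835 UMIs per cell. The other carcinoma clusters of this tumor had medians of 1441 to 2443.5.

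Detection of one member in the same cell as another was compared with what independent detection would give at 2500 UMIs per cell. Epcam and Prom1 were found together in 337 cells, where 249 were expected, and Prom1 was detected in 21.4% of the cells with Epcam and 4.13% of those without. Their odds ratio, with 0.5 added to each count of cells, was 6.24, and it was 3.12 when cells were compared only inside their own cluster. Epcam and Cd44 were found together in 1145 cells where 1057 were expected, with Cd44 in 72.7% of cells with Epcam and 55.5% of those without, an odds ratio of 2.14 and 1.42 inside clusters. A part of the joint detection therefore lay between clusters and a part inside them. The odds ratios were 1.56 for Epcam with Cd24a, 1.56 for Prom1 with Cd44, 1.49 for Prom1 with Cd24a and 1.39 for Cd44 with Cd24a, and inside clusters 1.21, 1.32, 1.17 and 1.29. Met showed little relation with the others, at 1.19 with Epcam and 0.921 with Cd44.

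Dclk1 was detected less often in cells with Epcam, in 10.5% against 19.8% of cells without it, or 165 cells where 213 were expected. The odds ratio was 0.473 and moved nearer to 1, to 0.710, inside clusters. Dclk1 with Prom1 gave 0.551 and 0.760 inside clusters, and Dclk1 with Cd44 gave 0.796 and 1.17. At this depth Dclk1 was thus found with Epcam and with Prom1 less often than independence gives, and for Cd44 the direction changed once clusters were held fixed. At 500 UMIs Epcam with Dclk1 gave 21 cells where 27.5 were expected, an odds ratio of 0.666, but 0.988 inside clusters. The lower detection inside clusters was thus not seen for this pair at that depth. Prom1 with Dclk1 gave 3 cells where 2.57 were expected, too few to read, with odds ratios of 1.36 and 1.51 inside clusters. In the large-size tumor Epcam with Dclk1 gave 7 cells where 4.37 were expected, the other direction.

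Of the 21 pairs, 7 had an odds ratio of 1.5 or more, against 4.82% of all pairs of genes detected in 5% to 95% of the cells. Another 3 pairs lay at 0.667 or below, against 4.43% of all pairs, namely Epcam with Dclk1, Prom1 with Dclk1 and Epcam with Cxcr4. Inside clusters 5 pairs reached 1.5, against 3.60% of all pairs. Many of these rest on the 8 cells with Cxcr4, a gene below the 5% limit of the background. Of the 15 pairs without Cxcr4, 4 reached 1.5 over all cells, and only Epcam with Prom1 did so inside clusters. The medians of these 15 pairs were 1.10 over all cells and 1.03 inside clusters, and the medians of all gene pairs were 1.02 and 1.01. Without cluster 4, 5 of the 21 pairs reached 1.5 over all cells and 4 inside clusters. Epcam with Prom1 was then at 5.35 and 2.95 inside clusters and Epcam with Dclk1 at 0.510 and 0.715, while Epcam with Cd24a (1.49) and Prom1 with Cd44 (1.41) lay under the limit and Prom1 with Cd24a (1.68) above it.

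**Figure D3:**
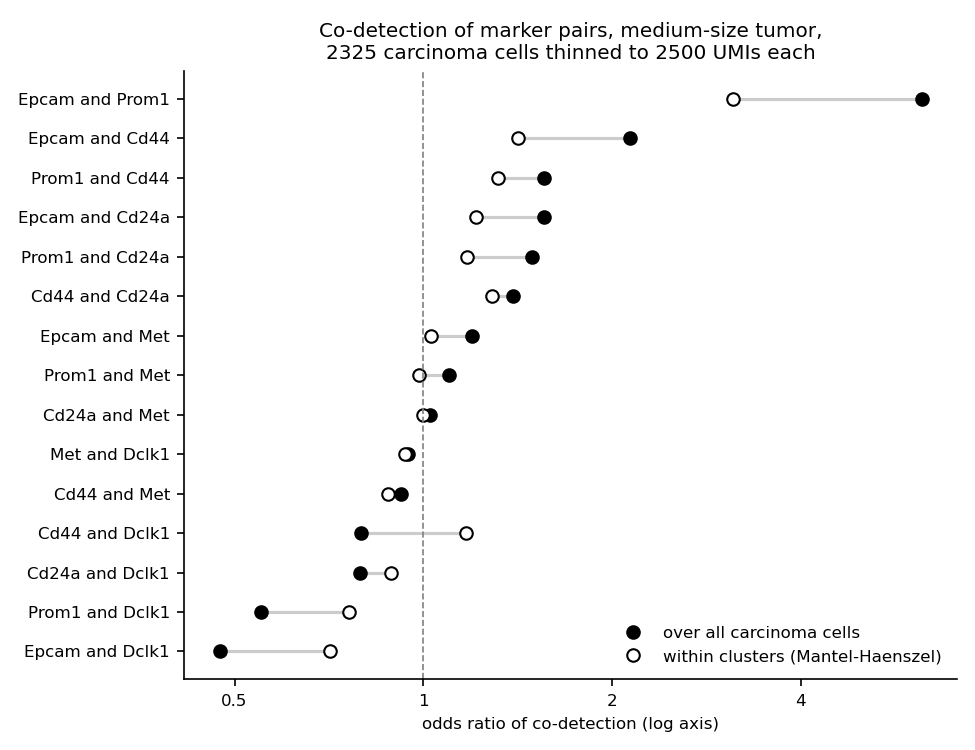
Odds ratio of co-detection (x axis, log scale) for the 15 pairs of markers without Cxcr4 (y axis) in 2325 carcinoma cells of the medium-size tumor at 2500 UMIs, over all cells (filled points) and inside clusters (open points). Epcam with Prom1 was at 6.24 and Epcam with Dclk1 at 0.473, and inside clusters these were 3.12 and 0.710.

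Combinations used to sort tumor-initiating cells were then counted in the same thinned cells. Epcam, Cd44 and Cd24a were detected together in 972 cells (41.8%), where independence gave 865, a ratio of 1.12 (1.05 to 1.2). With the expectation taken inside clusters it was 939 cells, and the ratio 1.04 (0.972 to 1.10) held 1 in its interval. Cells with these 3 and Prom1 numbered 221 (9.51%), where 137 were expected, a ratio of 1.61 (1.41 to 1.84), and inside clusters 196 were expected, a ratio of 1.13 (0.983 to 1.29). The excess of cells with all 4 markers was thus mostly a difference between clusters. Without cluster 4 the ratios over all cells were 1.14 for the 3 markers and 1.67 for the 4. Their share was 27.7% in cluster 7, 22.1% in cluster 4, 11.5% in cluster 1, 6.75% in cluster 6 and 0.437% in cluster 8. The share with Epcam, Cd44 and Cd24a was 75.9% in cluster 6, 73.2% in cluster 7 and 63.3% in cluster 4, against 10.9% in cluster 8 and 8.05% in cluster 5. Cd44 with Met was found in 78 cells, where 79.9 were expected. Prom1 with Cxcr4, a pair used for cells that spread from the tumor, was found in 2 cells where 1.27 were expected, and at this count no excess was detectable.

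At 2500 UMIs per cell, cells with 0, 1 or 4 of the members were more frequent, and cells with 2 less frequent, than independent detection gives. No member was detected in 58 cells (2.49%), where 30.9 were expected, and 1 member in 339 cells, where 279 were expected. Cells with 2 members numbered 674, where 816 were expected, and cells with 4 numbered 334, where 274 were expected. At least 4 members were detected in 365 cells (15.7%), where 306 (13.2%) were expected. Cells with 5 numbered 30, where 30.6 were expected, and 1 cell had 6, so the excess lay at 4. No cell had all 7, and a count of 0, taken as up to 3 cells, allows a share of up to 0.129% of cells with a UMI of each. At 500 UMIs per cell, none was detected in 763 carcinoma cells (32.8%) of the medium-size tumor, where 688 were expected, and in 357 (42.9%) of the large-size tumor, where 352 were expected. At that depth the pattern for 1 and 2 members was not the same, since 906 cells of the medium-size tumor had 1 member, where 1020 were expected, and 518 had 2, where 512 were expected. There were 340 cells with 1 in the large-size tumor, where 348 were expected.

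**Figure D4:**
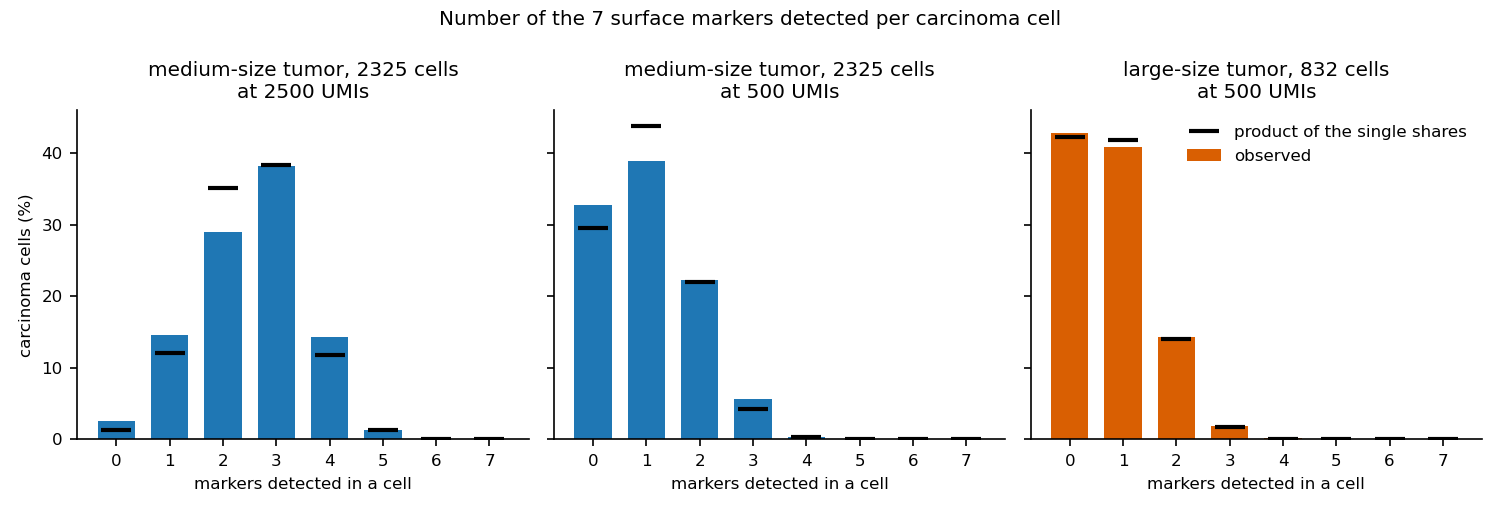
Number of the 7 markers detected per carcinoma cell (x axis) against the percent of carcinoma cells (y axis), with bars for the observed share and black marks for the share if detection were independent, in the medium-size tumor at 2500 and 500 UMIs and the large-size tumor at 500 UMIs. At 2500 UMIs 58 cells had none where 30.9 were expected, and 334 had 4 where 274 were expected.

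The large-size tumor allowed only 500 UMIs per cell, and few pairs could be read. Of its 21 pairs, 14 had an odds ratio of 1.5 or more, against 15.5% of all pairs, but in sparse pairs the 0.5 added to each count raises the ratio, and only 3 pairs had 5 or more expected cells. Epcam with Cd24a gave 73 cells where 59.2 were expected, an odds ratio of 1.52. Epcam with Cd44 gave 33 cells where 40.7 were expected, an odds ratio of 0.724, and Cd44 with Cd24a 38 where 38.9 were expected, an odds ratio of 0.970. Observed over expected cells was 1.23 (0.966 to 1.55) for Epcam with Cd24a and 0.812 (0.559 to 1.14) for Epcam with Cd44. Both intervals held 1.

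Summed over all carcinoma cells, the large-size tumor had lower levels of most members. Counting only what was detected at 500 UMIs in both tumors, Epcam was found in 38.2% of carcinoma cells of the medium-size and 27.3% of the large-size tumor, and Prom1 in 3.57% and 0.962%. Dclk1 was found in 3.10% and 1.92%, Cd44 in 22.9% and 17.9%, Cd24a in 32.5% and 26.1%, and Met in 1.38% and 1.2%. Cxcr4 was found in 0.0430% of the cells of the medium-size tumor and in 0 of 832 of the large-size tumor, which, taken as up to 3 cells, allows a share of up to 0.361%. This limits cells with a UMI at this depth, not cells that express the gene. The ratio of summed levels, large-size over medium-size, was 0.775 for Epcam, 0.291 for Prom1, 0.620 for Cd44, 0.788 for Cd24a, 0.958 for Met and 0.465 for Dclk1. Cxcr4 went the other way, at 1.85 (0.467 to 5.35) on 4 and 25 UMIs, with an interval that held 1. Without cluster 4 of the medium-size tumor the ratios were 0.877, 0.341, 0.634, 0.805, 0.982 and 0.443. The intestinal clusters of the large-size tumor were left out of these sums. Medium-size cluster 7, nearest in profile to the enterocyte-like one, was kept in both. With 1 UMI added, the ratio of Epcam was 0.889 with 20 principal components and 0.967 with cells classed one by one. The lower sum of Epcam therefore depends on how cells are classed. Of the 6 members with at least 200 UMIs, Prom1 and Dclk1 differed at least 2-fold, both lower, against 24.1% of 7563 genes. Cxcr4, below that count, was at 2.22 with 1 UMI added. With TMM scaling the ratio of Dclk1 was 0.503, just inside the limit. The share of all genes is large, and 1 tumor of each size cannot tell size from the animal, the depth or the capture.

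Clusters of the tumors were paired by their profiles, and 3 pairs held carcinoma clusters on both sides, at an r of 0.51 to 0.60 across 8114 genes, which are not independent replicates. These, medium-size first, were clusters 1 and 7, both with Gkn2 among their leading genes, the cycling clusters 2 and 5, and clusters 8 and 1 with the lowest Epcam. Prom1 was lower in the large-size tumor in each pair, with ratios of 0.452, 0.459 and 0.193, as was Dclk1, with 0.636, 0.388 and 0.745, but the interval held 1 for Prom1 in the pair 8 and 1 and for Dclk1 in the pairs 1 and 7 and 8 and 1. Cd44 was also lower in each, with 0.669, 0.828 and 0.539. For Epcam the direction differed among pairs, with 1.43, 1.76 and 0.426, so the lower sum of Epcam was not seen in each kind of cell. Cd24a stood at 1.01, 0.797 and 0.762 and Met at 0.483, 0.902 and 1.21. The medium-size clusters 4 and 7, which had the highest Prom1, were instead nearest to the goblet-like (r of 0.46) and enterocyte-like (0.33) clusters of the large-size tumor. Their ratios were 1.05 and 0.986 for Epcam, 0.25 and 0.0261 for Prom1 and 0.105 and 0.116 for Cd44.

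**Figure D5:**
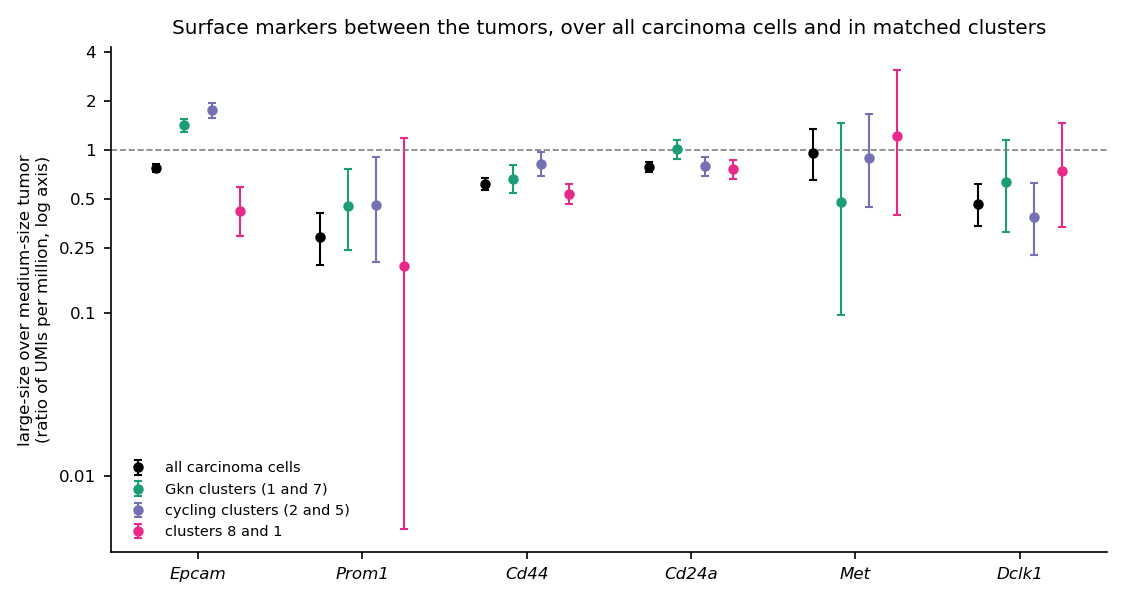
Ratio of marker levels, large-size over medium-size tumor (y axis, log scale), for the 6 markers other than Cxcr4 (x axis), over all carcinoma cells (black) and in 3 matched pairs of clusters (colours), with 95% exact intervals for counting error. The ratios of Prom1, Cd44 and Dclk1 lay below 1 in each of these pairs, whereas Epcam was at 1.43, 1.76 and 0.426.

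The genes whose levels followed each member most closely over the 14 clusters of the medium-size tumor were picked from 4800 genes by Pearson's r of log2(CPM + 10), with r over the 10 clusters of the large-size tumor beside it. For Epcam these were Smim22 (r of 0.955 and 0.940), Spint1 (0.949 and 0.745) and Erbb3 (0.944 and 0.807), where Spint1 encodes an inhibitor of the proteases that activate hepatocyte growth factor. For Prom1 they were Lrrc26 (0.949 and 0.697), Pglyrp1 (0.946 and 0.639) and Vsig2 (0.943 and 0.841). Dclk1 was followed by Pcolce (0.943 and 0.692), a gene of collagen processing, Eef1b2 (0.914 and 0.425) and Nbl1 (0.905 and 0.767). Cxcr4 was followed by Srgn (0.947 and 0.849) and Cxcl2 (0.944 and 0.463), genes of myeloid cells. These genes were picked for their r in the medium-size tumor, so a lower r in the large-size tumor is no finding. For Cd24a the genes were Anxa4 (0.935 and 0.467), Tpd52 (0.916 and 0.50) and Sri (0.912 and 0.0933), and for Met Lurap1l (0.956 and 0.482), Gipc2 (0.942 and 0.262) and Cldn2 (0.930 and 0.0206). For Cd44 they were Wbp2 (0.904 and 0.652), Tmbim1 (0.876 and -0.0980) and Ubl5 (0.861 and -0.168). Clusters of 1 library share cells, depth and free RNA, so these values are a description.

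Other genes of the members' pathways were counted from lists, in carcinoma against other cells of the medium-size tumor, among genes with at least 50 UMIs, of which 11.6% were at least 2-fold higher and 12.1% lower. With the same count asked, these shares in the large-size tumor were 15.0% and 13.5% of 4829 genes. Of 8 genes listed for Met, 7 could be counted, namely those of activating proteases, an inhibitor and 2 adaptors, and 5 were at least 2-fold higher in carcinoma cells and 1, the adaptor Gab1 (ratio 0.391), was lower. The 5 were the protease genes Tmprss2 (3.94), Hgfac (2.97), St14 (2.91) and Hpn (2.03) and the inhibitor gene Spint1 (3.07), and the median log2 ratio of the list was 1.54. Hgf itself had 8 UMIs in the tumor, 1 of them in carcinoma cells (0.0554 CPM). It stood at 5.43 CPM in macrophage-like, 4.11 CPM in endothelial-like and 3.01 CPM in stromal-like cells. Most of the few UMIs thus lay outside carcinoma cells, and they do not rank the other cell types beyond counting error. Of the 4 genes of this list counted in the large-size tumor, 0 were higher and St14 (0.312) and Spint1 (0.225) were lower. St14 there stood at 21.1 CPM in carcinoma, 173 CPM in enterocyte-like, 50.4 CPM in goblet-like and 0 CPM in macrophage-like cells. For Spint1 these levels were 14.7, 142, 95.3 and 0 CPM. Both were thus higher in the intestinal clusters than in carcinoma cells, but not in macrophage-like cells.

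Of 4 genes around Cxcr4, 3 were lower in carcinoma cells. The ligand gene Cxcl12 had a ratio of 0.119, with 81.3 CPM in stromal-like and 144 CPM in endothelial-like cells, the second receptor gene Ackr3 had 0.401, and Cd74 had 0.0174. Mif stood at 1.07. Only 2 of the 4 could be counted in the large-size tumor, and neither passed 2-fold. Of the 163 UMIs of Cxcl12 in the medium-size tumor 80 were in carcinoma cells, which were far more numerous.

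Of 8 genes for ligands, hyaluronan enzymes and membrane linkers of Cd44, 2 were higher, namely Spp1 (2.23), which encodes osteopontin, and Ezr (2.18), which encodes the linker ezrin. The other 2 past the limit were lower, the hyaluronan synthase gene Has1 (0.0124) and the hyaluronan-binding Vcan (0.294). Spp1 (5.52) was the 1 gene of 4 past 2-fold in the large-size tumor. Of 6 protease genes that shed or cut Epcam and Cd44, Bace2 was higher (2.20) and Adam17 lower (0.431), and in the large-size tumor Bace2 (4.58) was the 1 of 4. Of 3 genes listed for Cd24 partners, 2 could be counted and Selp was lower (0.0554), while the receptor gene Siglecg had 5 UMIs, and in the large-size tumor 1 could be counted and did not pass. Of 17 other stem cell markers, 4 were higher, namely Itgb4 (3.46), Aldh1a3 (2.92), Sox9 (2.51) and Ascl2 (2.20), and 4 were lower, namely Aldh1a1 (0.399), Klf4 (0.375), Abcg2 (0.339) and Aldh1a2 (0.0398). Aldh1a1 was not lower than in every cell type. It stood at 12.1 CPM in carcinoma, 158 CPM in mesothelial-like, 3.01 CPM in stromal-like and 2.17 CPM in macrophage-like cells. Of 8 stem cell markers counted in the large-size tumor, 5 were higher, namely Aldh1a3 (4.97), Alcam (3.25), Sox9 (2.99), Msi2 (2.64) and Cd9 (2.28), and Klf4 (0.490) was lower. Cd9 there stood at 1860 CPM in carcinoma and 1713 CPM in macrophage-like cells, against 583 CPM in goblet-like and 127 CPM in enterocyte-like cells. Of the 9 EMT genes 0 were higher and 4 lower, namely Fn1 (0.375), Snai1 (0.0816), Zeb2 (0.0643) and Sparc (0.0129). Of 5 counted in the large-size tumor, Cdh2 (6.90) was higher and Zeb2 (0.242) and Sparc (0.0172) were lower. None of 8 cell cycle genes, and none of 5 in the large-size tumor, passed 2-fold.

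Dclk1 marks tuft cells of the gut, so the tuft cell genes were read in the 314 carcinoma cells with Dclk1 at 2500 UMIs and in the 2011 without it. Pou2f3, the factor that sets up tuft cells, had 0 UMIs in the cells with Dclk1, as had Gfi1b, Il25 and Chat, and Trpm5 had 1. The defining genes of tuft cells were thus at or near 0 in these cells. Ptgs1 stood at 52.2 CPM with Dclk1 and 23.5 CPM without, a ratio of 2.23 (1.52 to 3.20), while Avil was at 38.2 CPM in both. Of the EMT genes, Zeb1 had a ratio of 1.79 (1.09 to 2.84), Vim 1.40 (1.29 to 1.52) and Fn1 0.656. All these ratios are over all carcinoma cells and were not taken inside clusters. Cluster 5 held 74 of the 314 cells with Dclk1. It had the highest Vim (1585 CPM) and Ptgs1 (57.5 CPM) of the carcinoma clusters and the lowest Fn1 (207 CPM). Zeb1 was highest in cluster 8. How far the ratios reflect the make-up of clusters was not tested. Of 4 tuft cell genes counted in carcinoma against other cells, Avil (3.81) was higher and 3 were lower, among them Ptgs1 (0.229) and Alox5ap (0.0278), and in the large-size tumor both genes counted, Ptgs1 (0.431) and Alox5ap (0.0336), were lower.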

How the data were processed

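Single cells of 2 KPC tumors were captured with the 10x Genomics 3′ v2 chemistry. The authors aligned reads and counted UMIs with Cell Ranger on mm10, per the submitters' processing notes, and deposited counts per gene and cell without normalization. The Cell Ranger version and annotation are not given in the sources used here. The members and gene lists were chosen with earlier results of these data known.

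Each table was clustered with Seurat 5.3.0 in R 4.3.3 (log normalization to 10000, 2000 variable genes by vst without the members, 10 principal components, resolution 0.8). A class needed 3 markers, each seen in 10% or more of a cluster's cells and at 25% or more of its highest cluster. Scrublet, through scanpy 1.11.5, called 0 doublets in the medium-size tumor and 9 (0.587%) in the other, and none was taken out. Because it called under 0.5% of cells in the medium-size tumor, doublets were not assessed there. Python 3.11.15, numpy 2.4.6, scipy 1.17.1 and BLAST 2.17.0 were used, with TMM from edgeR 4.0.16.

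UMIs were summed per group, with 1 added for log2 ratios and a limit of 2-fold. Genes needed 200 UMIs (medium-size tumor, and between tumors) or 50 (large-size tumor). Carcinoma cells held 18066200 and 1564112 of the UMIs, of which 3 counts equal 0.166 and 1.92 CPM. Cells were thinned to 2500 UMIs in the medium-size and 500 in the large-size tumor. Intervals are exact at 95% and cover counting error only. Odds ratios have 0.5 added to each cell count, and values inside clusters are Mantel-Haenszel. With 1 sample a group there are no p-values. Named genes are the members, the 3 nearest genes of each, and list genes past 2-fold or tied to a member by role. Of the 3 genes nearest to Cxcr4, 1 is not reported here, nor are all alleles of the mice. The steps were tested on simulated data.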

Additional observations from a re-analysis of the deposited data

Results flagged for a closer look

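Epcam was 3.24 times as high in carcinoma as in other cells of the medium-size tumor and 0.658 times as high in the large-size tumor, so the 1 sample of each size went opposite ways, and the difference was not tested. The other cells of the large-size tumor held 215 enterocyte-like and 154 goblet-like cells, with 1950 and 2539 CPM of Epcam, and no cluster of the medium-size tumor was named for either type. Clusters 4 and 7 of the medium-size tumor, kept as carcinoma, were nearest in profile to these goblet-like and enterocyte-like clusters (r of 0.46 and 0.33), and 2 goblet genes were among the 10 leading genes of cluster 4. With the enterocyte-like and goblet-like cells counted as carcinoma, the log2 ratio in the large-size tumor was 3.38.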

How the results depend on the processing

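No paired analysis was possible because the 4 technical replicates of a tumor are pooled in 1 table and no test was made. Of 190 values computed under other settings, 16 of the main counts and ratios and 34 of the values of single members moved beyond their limits, and 0 of those past 2-fold changed direction. Values within 2-fold did change direction, namely Epcam in the large-size tumor (log2 ratio -0.61, and 0.24, 0.41 and 3.38 at resolution 1.2, with cells classed one by one and with intestinal clusters as carcinoma) and Cd44 (0.46 to -0.27 at resolution 1.2 in the medium-size tumor, 0.87 to -0.16 with intestinal clusters as carcinoma in the large-size tumor), and Met under the latter setting (-0.63 to 0.0059). The number of members at least 2-fold higher in carcinoma cells of the large-size tumor was 1, and 2 at resolution 0.4, at resolution 1.2 and with 20 principal components, and 3 with intestinal clusters counted as carcinoma. Pairs in the medium-size tumor with an odds ratio of 1.5 or more numbered 7, and 11 without thinning. Inside clusters they numbered 5, and 2 at 1000 UMIs, 8 at 5000 UMIs, 13 without thinning and 3 where detection needed 2 UMIs. In the large-size tumor they numbered 14, and 9 at 1000 UMIs (581 cells) and 1 among pairs with at least 5 expected cells, a limit chosen after seeing the data. Observed over expected cells with Epcam, Cd44 and Cd24a were 1.12, and 1.30 at 500 UMIs, 1.04 without thinning and 1.23 with detection at 2 UMIs. For Cd44 with Met the ratio of 0.976 became 1.37 at 500 UMIs and 0.657 at 1000 UMIs. The cause of these changes was not tested. Prom1 with Cxcr4 gave no value at 500 or 1000 UMIs or with detection at 2 UMIs, where 0 cells held the pair. Without the filter on low counts, 8.60% of genes were at least 2-fold higher in the medium-size tumor (11.0% with it) and 34.3% differed between tumors (24.1% with it). Depth limits Met, Cxcr4 and, in the large-size tumor, Prom1.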
